A study of Mus musculus with 24 samples.

Results

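The effect of Ptk6 loss was examined in the distal jejunum of untreated male mice, 3 wild type (WT) and 3 Ptk6-/-. These are 6 of the 24 libraries of the series, and they are the count columns of the male controls. Of the 56691 genes in the count table, 19218 reached 10 counts or more in 3 or more of these libraries and were tested. Ptk6-/- is a germline disruption, so every cell of the animal lacks the gene, and the mice had been backcrossed to C57BL/6 for more than 20 generations. Mice were 9 to 11 weeks old, came from 1 colony but from different litters, and drank regular water. Bulk RNA of the whole jejunal piece was sequenced, 1 library per mouse, so fewer cells of a type and less RNA per cell cannot be told apart. For comparison, the same genotype contrast is given in 6 control females and in 6 males that received 100 mM succinate for 7 days, each with 3 WT and 3 Ptk6-/- mice.

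PTK6 is an intracellular tyrosine kinase of the Src-related group that lacks the lipid anchor of Src itself, and it is made mainly by epithelial cells. FRK and SRMS are its closest relatives. In the gut PTK6 is known for effects on growth, differentiation and survival of epithelial cells, and it acts on signalling proteins such as the EGF receptor, STAT3 and beta-catenin. The jejunal epithelium is renewed from crypt stem cells, and its secretory lineage gives mucus-making goblet cells, Paneth cells that store antimicrobial alpha-defensins, hormone cells and tuft cells.

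Levels are given as CPM, counts scaled to a common library total with TMM factors. Total counts were 22826652 to 52106284 in WT and 42106773 to 43375676 in Ptk6-/- mice. One library stood apart: in WT replicate 1 the 18S ribosomal RNA gene Rn18s-rs5 took 51.2% of counts (95% Wilson interval 51.20% to 51.24%, counting error only), against 1.58% and 0.206% in the other WT libraries and 0.168% to 0.383% in the Ptk6-/- libraries. The deposited FPKM values, used without rescaling between libraries, could be low in this library. Rere had an FPKM of 2.58 in WT replicate 1 and of 6.24 in both other WT mice, at 68.2, 66.8 and 67.0 CPM. The libraries also differed in how level went with transcript length. The slope of log2 level on log2 length, relative to the mean of all 24 libraries, was -0.051 to 4.12e-05 in WT and 0.122 to 0.193 in Ptk6-/- mice, so that the genotypes did not overlap. Male identity was checked on 5 sex-linked genes: Xist had 6 to 29 counts in the 6 libraries, and Kdm5d had 21.6 to 27.4 CPM.

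Ptk6 itself checked the genotypes. It had 25.4, 26.6 and 39.7 CPM in the WT mice and 0.687, 1.22 and 0.892 CPM in the Ptk6-/- mice. The groups were far apart, and 37 to 61 counts per library were left in the knockout. The gene lies at chr2:180835514-180844582 on the minus strand (GRCm39). Its log2 fold change was -5.04 (SE 0.29, adjusted p = 0.000518, edgeR's quasi-likelihood test, n = 3 and 3), and it was called in each of the 6 fits that left out 1 library. Frk was at 48.4, 50.9 and 54.5 CPM in WT and at 76.2, 90.9 and 124 CPM in Ptk6-/- mice. All Ptk6-/- libraries were higher than all WT libraries, with a log2 difference of 0.92 (SE 0.18, edgeR adjusted p = 0.0372), which is short of the 2-fold threshold, and with a length offset its adjusted p was 0.0808. Srms was near the floor, at 7 to 21 counts per library, and its log2 difference of -1.21 had an edgeR adjusted p of 0.38. Among the other 52 tested genes within 1 Mb of Ptk6, edgeR, DESeq2, voom and limma on FPKM each called 0, and 12 had an unadjusted edgeR p under 0.05.

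Across all tested genes, 142 were called at an adjusted p under 0.05 and a fold change of at least 2, which is 0.739% of genes. Of these, 99 were higher in Ptk6-/- mice (0.515% of genes) and 43 were lower (0.224%). The genes that rose had a median log2 fold change of 1.22, and those that fell had a median of -1.15, so most changes were close to the 2-fold limit. At an unadjusted p under 0.05 there were 4837 of the 19218 genes, the background for such counts in the gene lists. In 141 of the 142 genes, WT and Ptk6-/- libraries were fully separate. Over all genes, 16.4% had every Ptk6-/- library above every WT library and 16.3% had every one below. The number of calls depended on single libraries. It was 4 and 3 without WT replicates 2 and 3, 6 and 2 without Ptk6-/- replicates 2 and 3, 211 without WT replicate 1 and 191 without Ptk6-/- replicate 1. Ptk6 and Igf2 were the 2 genes called in all of these fits. Every one of the 142 genes that was tested kept its direction in each of them. DESeq2 called 277 of 30222 genes (160 higher and 117 lower), which include 134 of the 142. Voom called 577 of 19218 (395 higher and 182 lower), and limma on FPKM 168 of 13941 (72 higher and 96 lower).

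**Figure D1:**
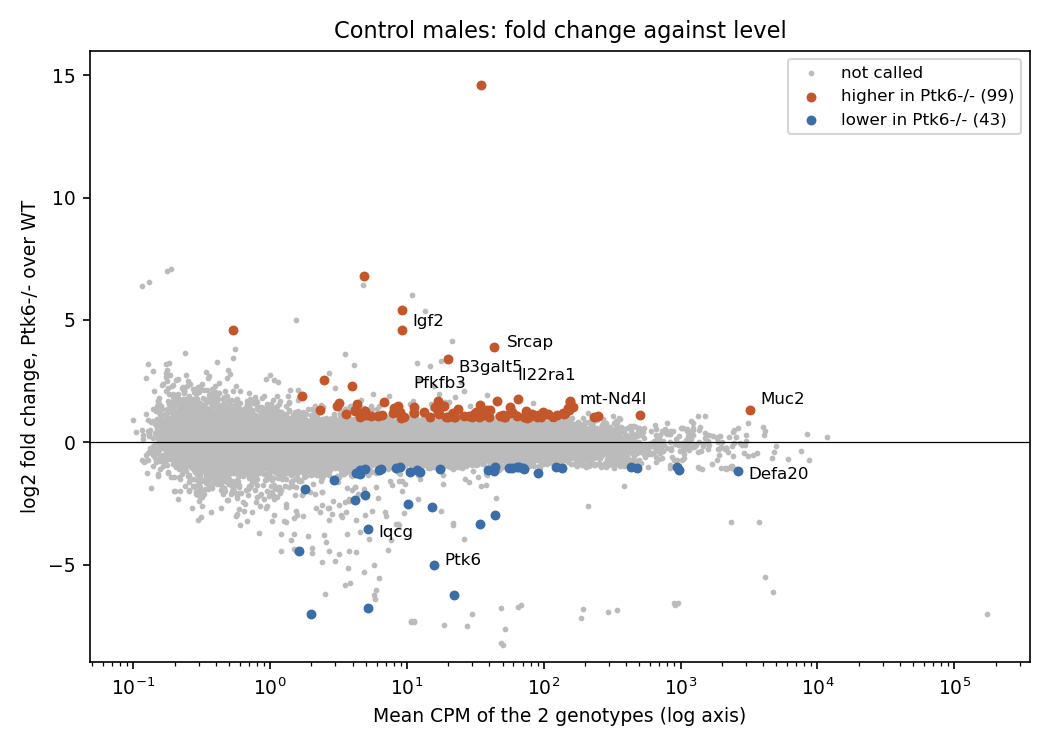
Each point is 1 of 19218 tested genes, with the mean CPM on a log axis and the log2 fold change of Ptk6-/- over WT control males on the vertical axis. The 99 genes called higher are red and the 43 called lower are blue, and most lie near a log2 fold change of 1 or -1.

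Transcript length moved with genotype and touches most of the groups described here. Lengths were inferred from the ratio of counts to FPKM for 16467 tested genes. The called genes that rose had a median length of 6019 bases, those that fell had 635 bases, and all tested genes had 3896 bases. When genes were split by length into 5 groups of equal size, the shortest group had a median log2 fold change of -0.41, with 18 genes called higher and 31 called lower. In the longest group it was 0.26, with 36 called higher and 1 called lower. When the fit held an offset for each library's length trend, 51 genes were called, 43 of them among the 142. Of these 43, 37 were higher and 6 were lower in Ptk6-/- mice.

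**Figure D2:**
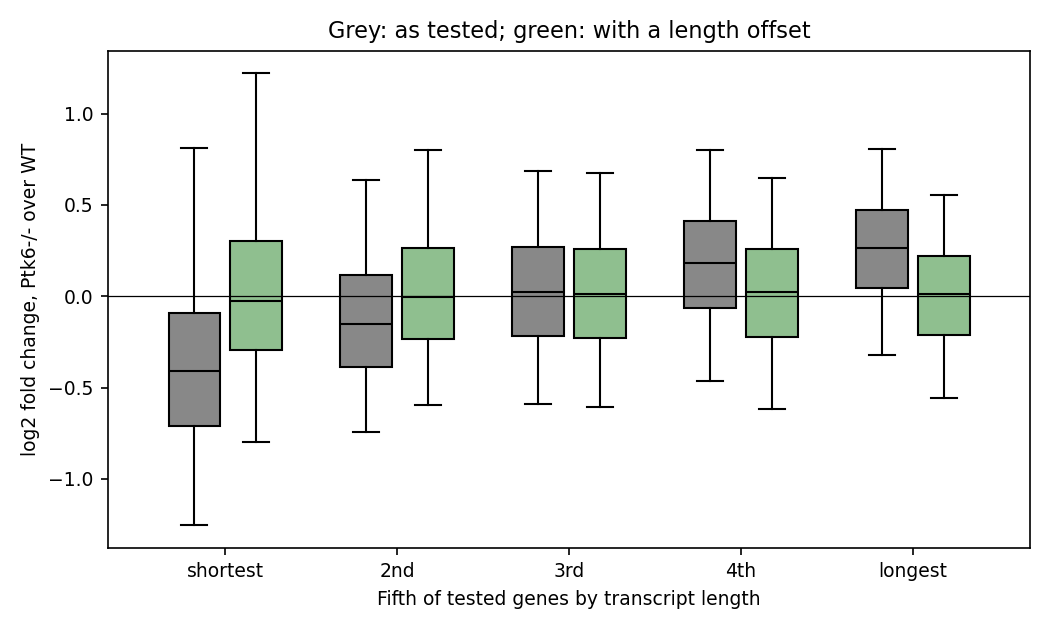
Boxes give the quartiles and whiskers the 5th and 95th percentiles of the log2 fold change (Ptk6-/- over WT control males) in 5 equal groups of tested genes by transcript length. Grey boxes, as tested, climb from a median of -0.41 in the shortest group to 0.26 in the longest, and green boxes, with a length offset, have medians near 0.

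Il22ra1 rose in Ptk6-/- mice. It encodes the receptor chain through which epithelial cells sense the cytokine IL-22, which innate lymphoid and T cells release and which drives antimicrobial and repair genes through STAT3. Il22ra1 (chr4:135455483-135479451, plus strand, GRCm39) had 27.8, 29.1 and 31.0 CPM in WT and 104, 78.1 and 115 CPM in Ptk6-/- mice. WT mice were close together, and every Ptk6-/- mouse was far above them. The log2 fold change was 1.76 (SE 0.16, edgeR adjusted p = 0.0114), and with the length offset it was 1.9 (adjusted p = 0.01). Leaving out 1 library gave edgeR adjusted p of 0.00669 to 0.0803, and the call held in 3 of the 6 fits. Il22 itself had at most 12 counts in a library and was not tested.

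Of the 10 tested genes of the IL-22 receptor and its signalling, Il22ra1 was the 1 gene called, where 0.515% of all genes were called higher. Stat3, the transcription factor downstream of the receptor, was at 114 ± 11.1 CPM in WT and 191 ± 19.9 in Ptk6-/- mice (SD, n = 3 each), a log2 difference of 0.75 with an edgeR adjusted p of 0.0322, under the 2-fold threshold. Jak1, the kinase bound to the receptor and chosen after its values were seen, differed by 0.54 on the log2 scale (edgeR adjusted p = 0.0356). The length offset gave Stat3 and Jak1 adjusted p of 0.124 and 0.122. The list's median log2 fold change was 0.47, beside 0.017 over all genes tested. In the list of 20 tested IL-22 target genes, edgeR called 1, Tifa, again beside 0.515% of all genes called higher. DESeq2 called 3 higher, among 160 genes higher in all. Voom called 2 higher and 1 lower, among 395 and 182. The list's median was 0.46, which was 0.28 without WT replicate 1. Tifa, an adaptor that relays bacterial sugar signals to NF-kappaB, had 26.6, 51.8 and 46.2 CPM in WT and 87.2, 84.5 and 88.2 CPM in Ptk6-/- mice. The groups did not overlap (log2 fold change 1.05, SE 0.22, edgeR adjusted p = 0.041), and it was called in none of the 6 fits that left out 1 library, nor with the length offset (adjusted p = 0.0541). Fut2, which fucosylates mucosal surfaces, was at 1.65, 2.33 and 2.29 CPM in WT and 4.14, 4.42 and 12.8 CPM in Ptk6-/- mice, with an edgeR adjusted p of 0.0633. The antimicrobial lectins Reg3b and Reg3g, well-known IL-22 targets taken up outside the naming rule with their values seen, had log2 differences of 0.30 and 0.42 with edgeR adjusted p of 0.593 and 0.456.

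Alpk1, the kinase that senses bacterial ADP-heptose and acts on TIFA, rose as well. It had 9.65, 9.13 and 10.5 CPM in WT and 25.3, 26.1 and 31.0 CPM in Ptk6-/- mice. The 2 groups were tight and well apart, with a log2 fold change of 1.49 (SE 0.14, edgeR adjusted p = 0.0135), and of 1.3 with the length offset (adjusted p = 0.0212). Rnf125, a ubiquitin ligase known to restrain antiviral RNA sensing, went from 4.52 ± 0.114 to 12.7 ± 0.953 CPM (log2 fold change 1.49, edgeR adjusted p = 0.0151). Of 28 tested interferon-stimulated genes, edgeR, DESeq2, voom and limma on FPKM each called 0, with 5 at an unadjusted edgeR p under 0.05.

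**Figure D3:**
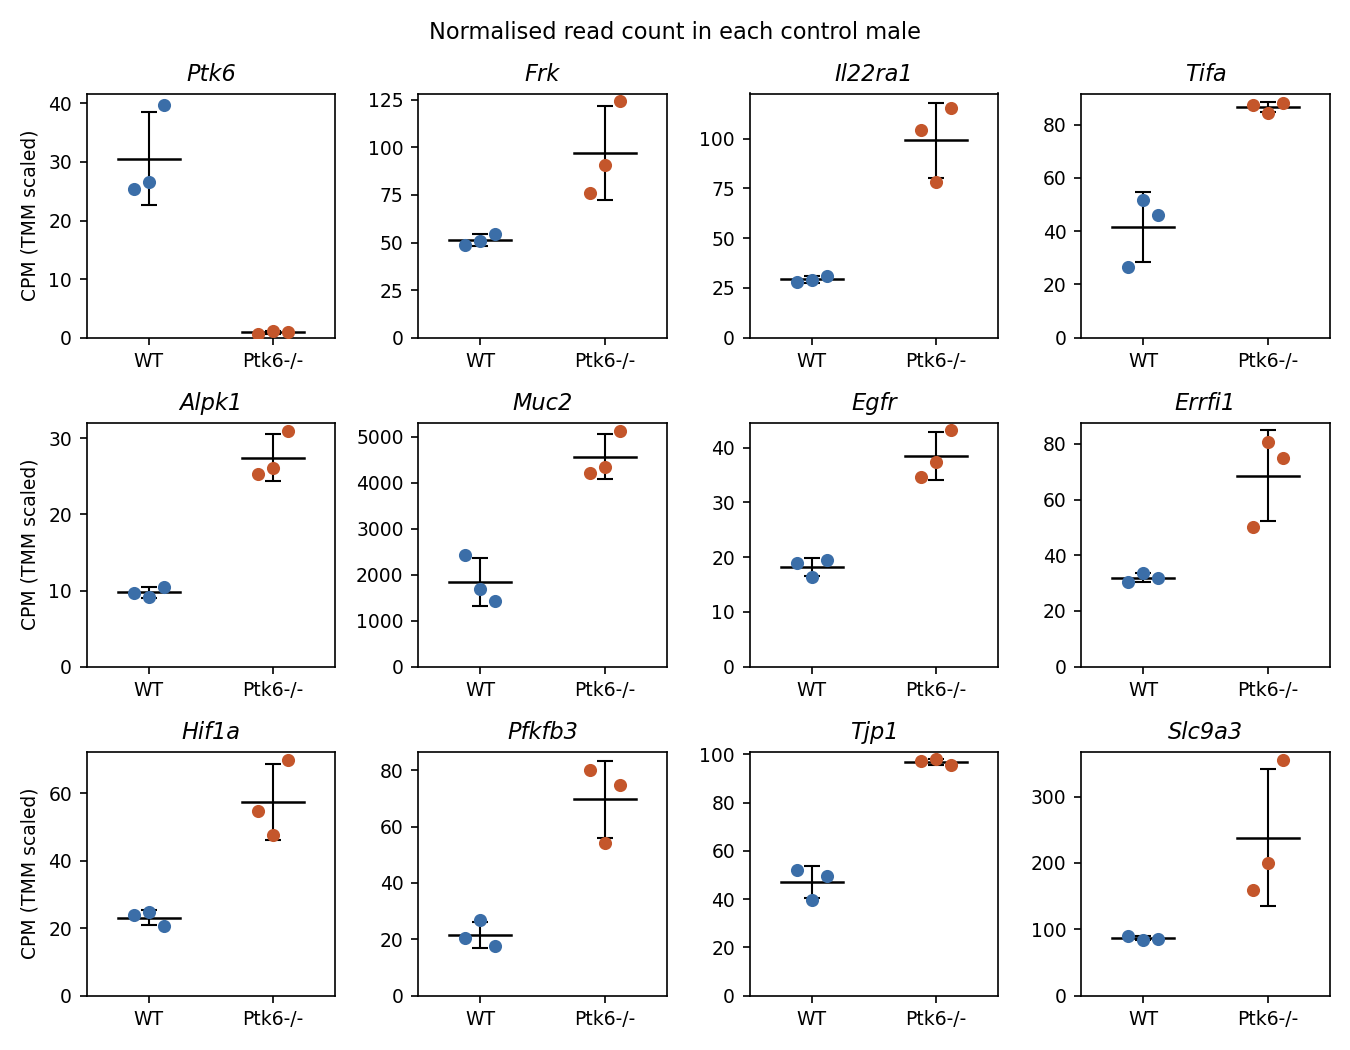
Points are the CPM of each control male for 12 genes (blue WT, red Ptk6-/-, 3 mice each), and bars give the mean and SD. Ptk6 drops from 30.6 to 0.933 CPM, and in the other 11 genes every Ptk6-/- mouse lies above every WT mouse. The genes were picked for the figure, some after their values were seen. Over all tested genes, 16.4% had every Ptk6-/- mouse above every WT mouse.

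The EGF receptor and its feedback inhibitor were both higher in the knockout. Egfr had 18.9, 16.4 and 19.5 CPM in WT and 34.6, 37.3 and 43.2 CPM in Ptk6-/- mice, with no overlap. Its log2 fold change was 1.07 (SE 0.14, edgeR adjusted p = 0.02), and 0.80 with the length offset (adjusted p = 0.0538). Errfi1, which encodes the inhibitor that binds the active EGF receptor, was chosen after its values were seen: it had 30.3, 33.7 and 31.8 CPM in WT and 50.03, 80.8 and 74.95 CPM in Ptk6-/- mice (log2 fold change 1.10, SE 0.18, edgeR adjusted p = 0.03). Of 23 tested growth factor receptors and ligands, 21 had a positive log2 difference and 2 were called, Egfr and Igf2, where 0.515% of all genes were called higher. The list's median was 0.43, and its transcripts are long (median 7196 bases). Met, the receptor of hepatocyte growth factor, differed by 0.68 (edgeR adjusted p = 0.0345) and Irs2, the adaptor of insulin and IGF receptors, by 0.97 (adjusted p = 0.0207), both under the fold threshold and both chosen after their values were seen. The length offset gave them adjusted p of 0.101 and 0.0541. The second called member, Igf2, rests on overlapping annotation and is described with such genes. Among 20 tested partners and substrates of PTK6, Egfr was the 1 gene called, with a list median of 0.35. The median was 0.12 with the length offset, and edgeR then called 0.

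Muc2, the main gel-forming mucin of goblet cells, was among the most abundant genes that rose. It had 2421, 1679 and 1422 CPM in WT and 4216, 4344 and 5116 CPM in Ptk6-/- mice. The lowest Ptk6-/- mouse was above the highest WT mouse, which was replicate 1 (log2 fold change 1.31, SE 0.26, edgeR adjusted p = 0.0378). Its transcript is long, and with the length offset the log2 fold change was 1.05 (adjusted p = 0.0752). Muc2 was the 1 gene that edgeR called of 23 goblet cell genes, where 0.515% of all genes were called higher. With voom 2 of the 23 were called higher, among 395 genes higher in all. Of the 23, 16 had a negative difference, with a list median of -0.36, which was -0.0852 with the length offset and 0.0669 with limma on FPKM, a scale on which the median of all genes was 0.251. Tff3, the trefoil peptide secreted with mucin, was at a mean of 602 CPM in WT and 350.1 CPM in Ptk6-/- mice, and Zg16, a mucus lectin, was at 3674 and 2498 CPM, with edgeR adjusted p of 0.0571 and 0.165. Both were chosen after their values were seen. Creb3l1, a transcription factor of secretory cells, was higher by 0.60 (edgeR adjusted p = 0.0355), and Ramp1, a neuropeptide receptor subunit, lower, with a log2 difference of -0.70 (adjusted p = 0.0341, and 0.0609 with the length offset). P2ry4, a nucleotide receptor, was at 6.0, 0.937 and 2.01 CPM in WT and 5.11, 7.22 and 7.85 CPM in Ptk6-/- mice; the groups overlapped through WT replicate 1, and the edgeR adjusted p was 0.214 (0.0321 to 0.405 without 1 library).

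Single genes of glycan synthesis were among the calls, and no list of them was tested. B4galnt2, which makes the Sda antigen on intestinal mucins and glycolipids, had 79.0, 82.3 and 96.7 CPM in WT and 205, 180 and 211 CPM in Ptk6-/- mice (log2 fold change 1.21, SE 0.13, edgeR adjusted p = 0.0167, and 1.49 with the length offset, adjusted p = 0.0109). B3galt5 and Gbgt1 were taken up after their values were seen. B3galt5, which makes type 1 glycan chains, had 1.91, 4.76 and 3.23 CPM in WT and 20.5, 25.5 and 62.8 CPM in Ptk6-/- mice. One Ptk6-/- mouse was far above the other two, yet the groups were well apart (log2 fold change 3.39, SE 0.48, edgeR adjusted p = 0.0234). Gbgt1, related to the Forssman glycolipid synthase, was at 1.57 to 2.74 and 4.72 to 5.44 CPM (log2 fold change 1.14, edgeR adjusted p = 0.0471, and 0.0574 with the length offset).

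Hif1a and Pfkfb3 were chosen after their values were seen, and no list of hypoxia or glycolysis genes was tested. Hif1a, the oxygen-regulated transcription factor, had 24, 24.8 and 20.5 CPM in WT and 54.6, 47.8 and 69.9 CPM in Ptk6-/- mice (log2 fold change 1.31, SE 0.16, edgeR adjusted p = 0.02, and 1.15 with the length offset, adjusted p = 0.0373). Pfkfb3, which makes the sugar phosphate that speeds glycolysis, had 20.5, 26.7 and 17.5 CPM in WT and 79.99, 54.1 and 74.8 CPM in Ptk6-/- mice. Its groups were also apart (log2 fold change 1.69, SE 0.20, edgeR adjusted p = 0.02, and 1.47 with the offset, adjusted p = 0.0276). Pdk4, the kinase that turns off pyruvate oxidation, was the 1 called member of 21 tested genes of fatty acid oxidation and ketogenesis. Over all genes 0.515% were called higher, and the list's median was 0.0298. Pdk4 had 3.65, 2.43 and 2.55 CPM in WT and 8.77, 5.60 and 6.42 CPM in Ptk6-/- mice (log2 fold change 1.3, SE 0.26, edgeR adjusted p = 0.0384, and 0.069 with the length offset).

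Slc9a3, Slc36a1 and Tjp1 were further calls. Slc9a3, the sodium and proton exchanger NHE3 of the brush border, was chosen after its values were seen: it had 90.1, 84.1 and 86.0 CPM in WT and 160, 201 and 354 CPM in Ptk6-/- mice, with a wide spread among the latter (log2 fold change 1.46, SE 0.27, edgeR adjusted p = 0.0349). Slc36a1, a proton-coupled amino acid carrier, was chosen in the same way and went from 43.2 ± 3.18 to 105 ± 32.1 CPM (log2 fold change 1.28, edgeR adjusted p = 0.0296). Neither was called with the length offset (adjusted p = 0.0733 for Slc9a3 and 0.0574 for Slc36a1). Of 25 tested digestive enzymes and nutrient transporters on the fixed list, which does not hold these, edgeR, DESeq2, voom and limma on FPKM each called 0, with 5 at an unadjusted edgeR p under 0.05 and a median of 0.23 (0.14 without WT replicate 1 and 0.37 without Ptk6-/- replicate 1). Tjp1, the scaffold ZO-1 of tight junctions, had 52.1, 39.8 and 49.5 CPM in WT and 97.5, 97.9 and 95.5 CPM in Ptk6-/- mice (log2 fold change 1.04, SE 0.13, edgeR adjusted p = 0.02, and 0.82 with the length offset, adjusted p = 0.0425). It was the 1 gene called of 22 tight junction genes, where 0.515% of all genes were called higher. Of the 22, 18 had a positive difference (median 0.35), as did 9857 of all 19218 tested genes.

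Regulators of chromatin and transcription were the list with the most calls among genes that rose. Of its 44 tested members, 41 had a positive difference and 6 were called, where 0.515% of all genes were, and the median was 0.54. Among them are Rere, Zmiz1, Setd1b and Srcap. The members are long (median 11134 bases), and under the length offset 3 were called and the median was 0.30. Without WT replicate 1, 10 were called, among 165 genes higher in all. Rere, a co-repressor of nuclear receptors, had 68.2, 66.8 and 67.0 CPM in WT and 151, 148 and 146 CPM in Ptk6-/- mice, tight in both groups (log2 fold change 1.14, SE 0.10, edgeR adjusted p = 0.0114). Zmiz1, a co-activator of androgen receptor and Notch, went from 87.2 ± 5.18 to 218 ± 29.3 CPM (log2 fold change 1.33, edgeR adjusted p = 0.0151). Setd1b, a histone H3 lysine methyltransferase, went from 19.2 ± 5.70 to 44.7 ± 7.44 CPM (log2 fold change 1.23, edgeR adjusted p = 0.0341). Outside the list, the RNA polymerase II subunit Polr2a, the SWI/SNF subunit Bicra and the nuclear pore gene Pom121 rose by 1.16, 1.16 and 1.29 on the log2 scale, with edgeR adjusted p of 0.0151, 0.0156 and 0.0151. With the length offset Polr2a, Bicra, Rere and Setd1b had log2 differences of 0.96, 0.94, 0.90 and 0.96 and were no longer called, while Pom121 had 1.14 and Zmiz1 1.05.

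Alpha-defensin genes were lower together. These are short peptides that Paneth cells store in granules and release into the crypt. All 27 tested members had a negative difference, with a median log2 fold change of -1.05 and values from -1.24 to -0.14. The edgeR test called 6 of them, where 0.224% of all genes were called lower: Defa20, Defa23, Defa26, Defa30, Defa34 and Defa35. Summed over the family, the level was 49722, 43222 and 39266 CPM in WT and 29147, 16073 and 18609 CPM in Ptk6-/- mice. Every Ptk6-/- mouse was below every WT mouse, and Ptk6-/- replicate 1 was the nearest to WT. Without that library 25 members were called, among 66 genes lower in all, and the median was -1.34. Without WT replicate 1 none of the family was called. With the length offset the median was -0.48 and edgeR called 0 of 27, and limma on FPKM also called 0. DESeq2 called 17 of the 27, among 117 genes lower in all, and voom 26, among 182. Members are near-identical copies in a cluster on chromosome 8, with a median length of 410 bases, so the split of reads among them is uncertain.

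Upstream sequences of the family are shown because all 27 tested members had a negative difference. RefSeq's promoter table (GRCm38.p6, a different build from the GRCm39 positions used elsewhere) matched 16 of the 27 members and 4 of the 6 that were called. Printed are the 120 bases before the start site of these 4 and of the abundant members Defa2 and Defa22, 5′ to 3′ on the plus strand. Capitals mark ATCAAAG, the letters of a TCF/LEF motif, and TATAAA, the TATA box, each searched on both strands, and the pair did not overlap.
Defa20, chr8:21509138-21509257: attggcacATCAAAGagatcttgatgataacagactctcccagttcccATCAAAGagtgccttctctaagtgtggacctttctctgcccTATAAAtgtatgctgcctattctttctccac
Defa23, chr8:21054920-21055039: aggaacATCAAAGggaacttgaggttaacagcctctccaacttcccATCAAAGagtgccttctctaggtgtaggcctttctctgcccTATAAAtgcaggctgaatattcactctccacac
Defa30, chr8:21134530-21134649: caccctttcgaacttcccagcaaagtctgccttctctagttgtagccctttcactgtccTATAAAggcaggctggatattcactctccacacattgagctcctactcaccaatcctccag
Defa35, chr8:21064918-21065037: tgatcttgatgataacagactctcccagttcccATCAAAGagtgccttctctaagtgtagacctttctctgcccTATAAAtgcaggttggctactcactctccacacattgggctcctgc
Defa2, chr8:21378397-21378516: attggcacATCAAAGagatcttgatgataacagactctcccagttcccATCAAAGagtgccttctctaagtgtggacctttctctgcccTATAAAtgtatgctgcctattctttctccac
Defa22, chr8:21162157-21162276: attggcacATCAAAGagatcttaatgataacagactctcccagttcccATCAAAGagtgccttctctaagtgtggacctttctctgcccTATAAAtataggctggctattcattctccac

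In the 250 bases before the start site, 13 of the 16 matched members held ATCAAAG (81.2%), against 3.21% of all 32851 start sites in the table. TATAAA was in 15 of the 16 (93.8%), against 12.4% of all start sites. A match of letters is a description of the sequence and shows no binding. Set side by side at the TATA box, the 80 bases that end with it were identical between Defa2 and Defa20, and differed at 1 base between Defa22 and Defa20. Over the 105 pairs of the 15 members with such a window, identity ran from 66.2% to 100%, with a median of 87.5%. Defa20, at 4051, 3423 and 3491 CPM in WT and 2132, 1314 and 1437 CPM in Ptk6-/- mice, fell by 1.17 on the log2 scale (SE 0.25, edgeR adjusted p = 0.0417). Defa2, with the same 80 bases, was at 3455, 2811 and 2395 CPM in WT and 1783, 1094 and 1227 CPM in Ptk6-/- mice, with a log2 difference of -1.08 and an edgeR adjusted p of 0.0531. Defa30, whose upstream sequence is more distant, was at 1368, 1345 and 1331 CPM in WT and 807, 461 and 557 CPM in Ptk6-/- mice (log2 fold change -1.15, SE 0.22, edgeR adjusted p = 0.0375). Defa34 and Defa35 fell by 1.03 and 1.12 on the log2 scale (edgeR adjusted p = 0.0388 and 0.0452).

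Paneth cell genes other than alpha-defensins formed a separate list. Of 12 tested, 11 had a negative difference (median -0.71), and Clps, the pancreatic lipase cofactor that is also made in Paneth cells, was the 1 gene edgeR called, where 0.224% of all genes were called lower, at 90.0, 75.5 and 71.9 CPM in WT and 48.5, 34.6 and 30.1 CPM in Ptk6-/- mice (log2 fold change -1.07, SE 0.19, edgeR adjusted p = 0.0322). DESeq2 called 2 of the 12 lower and voom 8, where they called 117 and 182 genes lower in all. The median of the 12 was -0.35 with the length offset, where edgeR called 0 and Clps had a log2 difference of -0.54 (adjusted p = 0.227). The exocrine pancreas list was at 5.13 to 6.85 CPM in sum in WT and 3.58 to 5.07 CPM in Ptk6-/- mice. Lyz1, the Paneth cell lysozyme, was at 6850, 8248 and 7458 CPM in WT and at 8655, 2365 and 2862 CPM in Ptk6-/- mice. Ptk6-/- replicate 1 was above all WT mice and the other Ptk6-/- mice were far below them, and the edgeR adjusted p was 0.41. Itln1, an intestinal lectin, was at 2621 to 3041 CPM in WT and 2158, 921 and 1072 CPM in Ptk6-/- mice, all of them below WT with replicate 1 the nearest to it (log2 difference -1.03, edgeR adjusted p = 0.0987). Without Ptk6-/- replicate 1, edgeR called 8 of the 12 genes, among 66 genes lower in all, and the median was -1.33. In the same library the summed level of 23 stem cell and Wnt target genes was 1126 CPM, against 624 and 636 CPM in the other Ptk6-/- mice and 653 to 821 CPM in WT, and its part in the Paneth cell values was not tested.

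Ribosomal protein genes, which build the cytosolic ribosome, were lower as a whole list. All 80 tested members had a negative difference, 65 had an edgeR adjusted p under 0.05, and 6 passed the 2-fold threshold as well: Rps15a, Rps25, Rps27a, Rpl13a, Rpl36 and Rpl36a. Over all 19218 genes, 359 were lower at that adjusted p, and 0.224% passed both limits. The median was -0.88, and the summed level was 29962, 24909 and 23587 CPM in WT and 13348, 15076 and 14740 CPM in Ptk6-/- mice. The groups were separate, and WT replicate 1 was the highest. Without it the median was -0.73, and 1 gene was called. With the length offset the median was -0.61, with 2 genes called and 5 with an adjusted p under 0.05, and limma on FPKM called 0. Rps15a had 188, 156 and 147 CPM in WT and 73.6, 83.2 and 83.5 CPM in Ptk6-/- mice (log2 fold change -1.03, SE 0.13, edgeR adjusted p = 0.02). It was called in 0 of the 6 fits that left out 1 library. Rpl13a had 744, 588 and 606 CPM in WT and 279, 335 and 329 CPM in Ptk6-/- mice (log2 fold change -1.04, edgeR adjusted p = 0.028). Of 169 tested ribosomal protein pseudogenes, which share reads with these genes, 4 had a positive difference and 5 were called, all 5 lower, where 0.224% of all genes were.

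Of 79 nuclear genes of the respiratory chain, 78 had a negative difference (median -0.60) and 16 had an edgeR adjusted p under 0.05. In this list edgeR, DESeq2, voom and limma on FPKM each called 0, with 66 genes at an unadjusted edgeR p under 0.05. With the length offset the median was -0.28, and 1 gene had an adjusted p under 0.05. Genes of the mitochondrial genome did not share this direction. Of 13, 9 had a positive difference (median 0.21, and 0.68 with the length offset). The 1 called gene was mt-Nd4l, a complex I subunit, where 0.515% of all genes were called higher. It was at 82.0, 63.3 and 76.6 CPM in WT and 285, 179 and 239 CPM in Ptk6-/- mice (log2 fold change 1.67, SE 0.19, edgeR adjusted p = 0.0198). It overlaps mt-Nd4, and the 2 genes summed differed by 0.62 (edgeR adjusted p = 0.0677). The called pseudogenes Gm10222 and Gm28439, which overlap each other and were chosen after their values were seen, had log2 fold changes of 1.63 and 1.11 (1.23 summed), and Gm10222 had the same CPM as mt-Nd4l to 3 digits in each Ptk6-/- mouse.

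**Figure D4:**
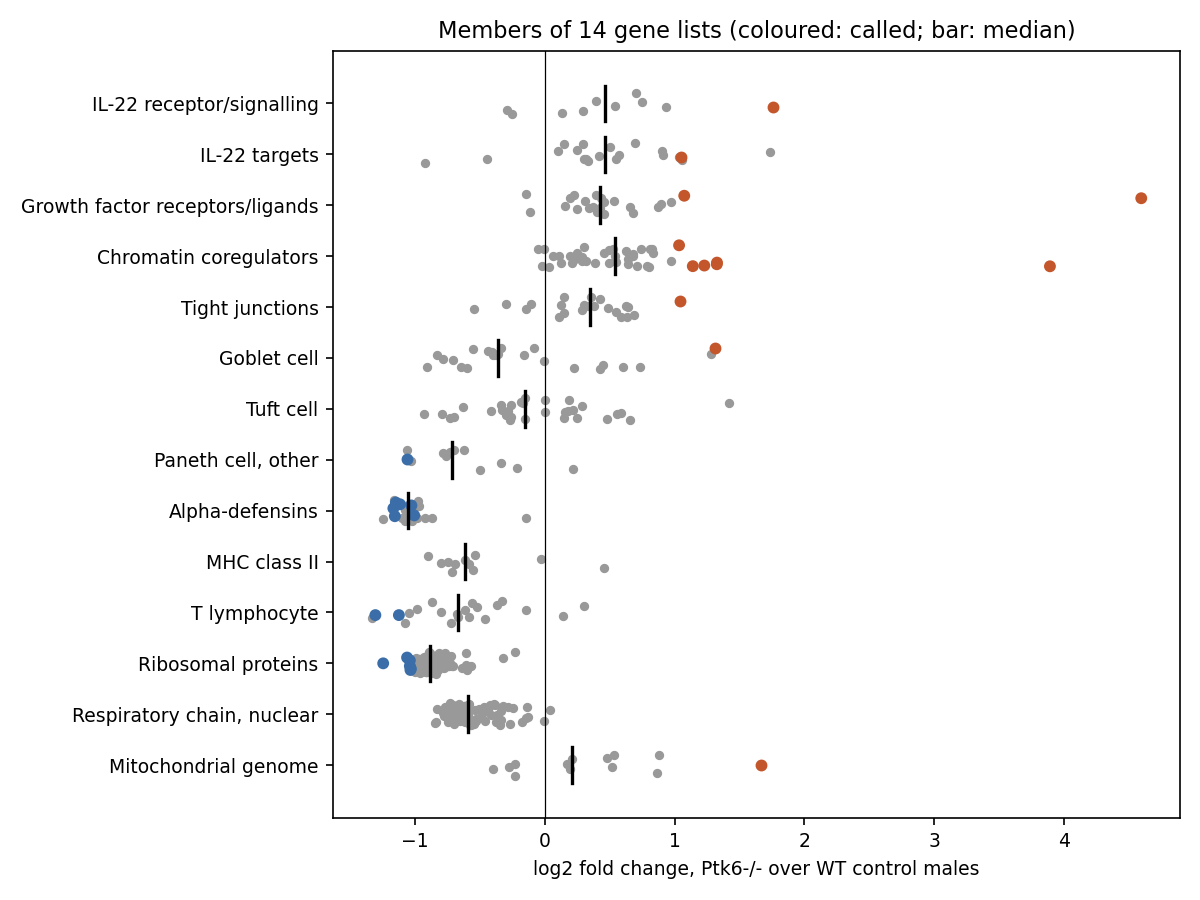
Each point is a tested member of 1 of 14 gene lists, placed by its log2 fold change of Ptk6-/- over WT control males, and bars mark list medians. Called genes are coloured, red for higher and blue for lower. The medians of the alpha-defensins (-1.05) and ribosomal proteins (-0.88) lie to the left, and that of the chromatin coregulators (0.54) to the right.

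Lists of immune cell genes had medians from -0.67 to 0.0208. Macrophage genes had 8 of 15 with a positive difference (median 0.0208). Their median was -0.18 without Ptk6-/- replicate 1 and -0.085 with voom. Mast cell and granulocyte genes had 3 of 6 with a positive difference (median -0.0062). Among 21 tested T lymphocyte genes, 19 had a negative difference (median -0.67), and Trbc1, a T cell receptor constant segment, and Nkg7, a cytotoxic granule protein, were called, where 0.224% of all genes were called lower. With the length offset edgeR called 0 of the 21, and the median was -0.48. Trbc1 had 8, 4.89 and 6.65 CPM in WT and 2.10, 3.52 and 2.22 CPM in Ptk6-/- mice (log2 fold change -1.31, SE 0.29, edgeR adjusted p = 0.0468). Nkg7 had 11.1, 6.65 and 7.98 CPM in WT and 2.99, 4.28 and 4.44 CPM in Ptk6-/- mice (log2 fold change -1.12, edgeR adjusted p = 0.0498). Neither was called in a fit without 1 library. Gzma, granzyme A of intraepithelial lymphocytes, was at 83.6 ± 4.32 and 42.2 ± 5.87 CPM, a log2 difference of -0.98 just under the fold threshold (edgeR adjusted p = 0.0206, and 0.0919 with the length offset). Of 11 MHC class II genes, 10 had a negative difference and 5 an edgeR adjusted p under 0.05, among them H2-Eb1 at -0.90 (adjusted p = 0.0291), and none passed the 2-fold limit in edgeR, DESeq2, voom or limma on FPKM. Under the length offset 0 of the 11 had an edgeR adjusted p under 0.05, and the median was -0.43. The summed T lymphocyte level was 307 to 365 CPM in WT and 200 to 251 CPM in Ptk6-/- mice, and that of MHC class II was 5432 to 6467 and 3349 to 4138 CPM.

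Immunoglobulin segments changed in both directions. Of 183 tested variable segments, 3 were called higher and 7 lower, where 0.515% and 0.224% of all genes were, and the median was -0.0348. Igkv4-57 had 43.4, 81.6 and 111 CPM in WT and 6.63, 14.3 and 8.79 CPM in Ptk6-/- mice (log2 fold change -2.99, SE 0.39, edgeR adjusted p = 0.02, and 0.0547 with the length offset). Ighg1, the IgG1 constant segment, was chosen after its values were seen, at 48.8, 18.6 and 11.9 CPM in WT and 5.24, 4.72 and 2.44 CPM in Ptk6-/- mice (log2 fold change -2.66, SE 0.53, edgeR adjusted p = 0.0383, and 0.075 with the length offset). Such segments follow the plasma cell clones of each mouse, and their copies are alike in sequence. Igkv3-7, chosen after its values were seen, was the 1 called gene whose groups overlapped, with 0.348 CPM in WT replicate 1 and 45.2 and 84.2 CPM in the other WT mice, and its edgeR adjusted p was 0.0857 with the length offset. The summed plasma cell genes were at 12860 to 13947 CPM in WT and 6469 to 12755 CPM in Ptk6-/- mice, and that list held 0 calls by edgeR, DESeq2, voom and limma on FPKM, with 3 genes at an unadjusted edgeR p under 0.05.

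Some genes outside these lists fell. Iqcg, a flagellar and calmodulin-binding protein gene, had 3.48, 11.4 and 13.7 CPM in WT and 0.669, 1.06 and 0.740 CPM in Ptk6-/- mice (log2 fold change -3.55, SE 0.49, edgeR adjusted p = 0.0229). Ppih, a spliceosomal prolyl isomerase, had 6.35, 6.73 and 11.1 CPM in WT and 1.41, 2.04 and 2.00 CPM in Ptk6-/- mice (log2 fold change -2.16, SE 0.29, edgeR adjusted p = 0.0207). Klhdc8a and Hddc2 fell by 1.15 and 1.24 on the log2 scale (edgeR adjusted p = 0.0302 and 0.0341). These 4 genes kept a log2 difference of -3.71, -1.92, -1.20 and -1.22 with the length offset, and Hddc2 was no longer called (adjusted p = 0.0564).

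A part of the calls depended on overlapping annotation. Of the 142 called genes, 44 overlap another gene on the same strand, and with the counts of overlapping genes summed 18 of these were no longer called in their direction. Igf2, a fetal growth factor, was at 0.435, 0.833 and 0.776 CPM in WT and 16.1, 17.97 and 19.4 CPM in Ptk6-/- mice (log2 fold change 4.60, edgeR adjusted p = 0.000518), while Gm49394, which overlaps it and was chosen after its values were seen, fell from 9.36 to 11.6 CPM to at most 0.260 CPM. Summed, the group differed by 0.70 (adjusted p = 0.0362). Zc3h11a had 0 counts in each WT library and 55.8 to 90.1 CPM in Ptk6-/- mice. The Ptk6-/- mean of 69.5 CPM was 560-fold the mean CPM of the floor of 3 counts over the WT libraries. Summed with Zbed6 and a second Zc3h11a entry, the group differed by 0.45 (edgeR adjusted p = 0.0517). Srcap, a called member of the chromatin list, had a log2 fold change of 3.89 alone and 0.60 when summed (edgeR adjusted p = 0.0304 and 0.0622). The called genes named here that stayed called when summed with an overlapping neighbour include those with log2 fold changes of 1.14 for Rere, 1.34 for Alpk1, 1.28 for Pom121, 1.3 for Zmiz1, 1.68 for Pfkfb3, 1.04 for Tjp1, 1.08 for Hif1a, -1.07 for Clps, -1.24 for Hddc2 and -1.02 for Rpl13a.

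Tuft cell and type 2 immunity genes gave no call. Tuft cells sense luminal succinate and release IL-25, which starts type 2 immunity. For the 31 tested tuft cell genes, edgeR, DESeq2, voom and limma on FPKM each called 0, and 6 had an unadjusted edgeR p under 0.05. The list's median was -0.15 (-0.0228 with the length offset and -0.0836 without Ptk6-/- replicate 1), and its summed level was 480 to 558 CPM in WT and 386 to 427 CPM in Ptk6-/- mice. Krt18, a keratin shared with other epithelial cells, was the 1 member with an edgeR adjusted p under 0.05 (log2 difference -0.63, adjusted p = 0.0356, and 0.19 with the length offset). Dclk1, a tuft cell kinase, was at 3.12 to 5.83 and 4.52 to 5.52 CPM, and the succinate receptor Sucnr1 had 0 to 28 counts in a library. For 16 tested genes of type 2 immunity and gasdermin C, these tools also called 0, with 4 at an unadjusted edgeR p under 0.05. Il25 had 0 counts in all 6 libraries, and Il4 and Il13 had at most 9 and 5. At this depth a change in these cytokines was not detectable.

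Proliferation and stem cell genes likewise gave no call. For 31 cell cycle genes and 23 stem cell and Wnt target genes, edgeR, DESeq2, voom and limma on FPKM each called 0, with 6 and 3 at an unadjusted edgeR p under 0.05 and medians of -0.16 and 0.0096, which were -0.38 and -0.28 without Ptk6-/- replicate 1. Mki67 was at 116, 99.3 and 84.0 CPM in WT and at 128, 68.8 and 69.4 CPM in Ptk6-/- mice, so the groups overlapped through Ptk6-/- replicate 1. Axin2, a Wnt target, was higher by 0.64 (edgeR adjusted p = 0.0346), under the fold threshold, and its adjusted p was 0.0664 with the length offset, where the stem cell list's median was -0.21. Of 55 replication-dependent histone genes edgeR called 0, with 36 at an unadjusted p under 0.05. DESeq2 called 3 lower and limma on FPKM 13 lower, among 117 and 96 genes lower in all. Voom called 1 higher, among 395. The median of the 55 genes was -2.82, and it rested on 1 library. Their summed level was 1052 CPM in WT replicate 1, the library rich in 18S ribosomal RNA, and 293 to 325 CPM in the other WT mice. Without that library the median was -0.12.

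The same contrast in other mice showed how far these genes carried over. In control females 3 of 19035 genes were called by edgeR (0.0158%), and 0 to 1808 in fits without 1 library. Ptk6 was among the 3 at a log2 fold change of -5.64 (adjusted p = 0.00632). In succinate-treated males edgeR called 0 of 18904 (0%), and Ptk6 had -5.25 (adjusted p = 0.141). At an unadjusted p under 0.05 there were 2115 and 514 genes, and the calls were 175 and 72 with DESeq2, 1972 and 1799 with voom, and 4 and 13 with limma on FPKM. The treated Ptk6-/- males included a library of 8080321 counts, and 18S ribosomal RNA took up to 29.7% of counts in that group. Differences between contrasts were tested as interactions. Of 20428 genes 0 were called for sex by genotype (0%) and of 20340 genes 0 for genotype by succinate (0%), with 947 and 772 at an unadjusted edgeR p under 0.05. DESeq2 called 20 and 62, voom 7 and 2, and limma on FPKM 3 and 0. Of 799 and 618 genes tested in control males and with an unadjusted interaction p under 0.05, 20 and 19 were among the 142.

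Of the 96 risen genes that were tested in females, 90 had the same direction (93.8%) and the median log2 fold change was 0.96. For the 42 fallen genes it was 33 (78.6%), with a median of -0.63. Over all genes tested in both, 68.9% had the same direction. In succinate-treated males 88 of the 99 risen genes (88.9%) and 17 of 42 fallen genes (40.5%) had the same direction, with medians of 0.58 and 0.10, against 57.0% of all genes. The length slopes of these groups overlapped between genotypes: -0.120 to -0.0181 in WT and -0.130 to 0.167 in Ptk6-/- control females, and -0.139 to 0.145 and -0.150 to 0.0578 in treated males, and their part in these shares was not tested. Il22ra1 was at 21.9, 2.91 and 9.24 CPM in WT females and 52.9, 116 and 5.62 CPM in Ptk6-/- females, so the groups overlapped (log2 difference 2.36, edgeR adjusted p = 0.454). The alpha-defensin median was -0.51 in females and -0.0588 in treated males, and that of ribosomal protein genes was -0.64 and 0.14. The chromatin coregulators had medians of 0.60 and 0.18.

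**Figure D5:**
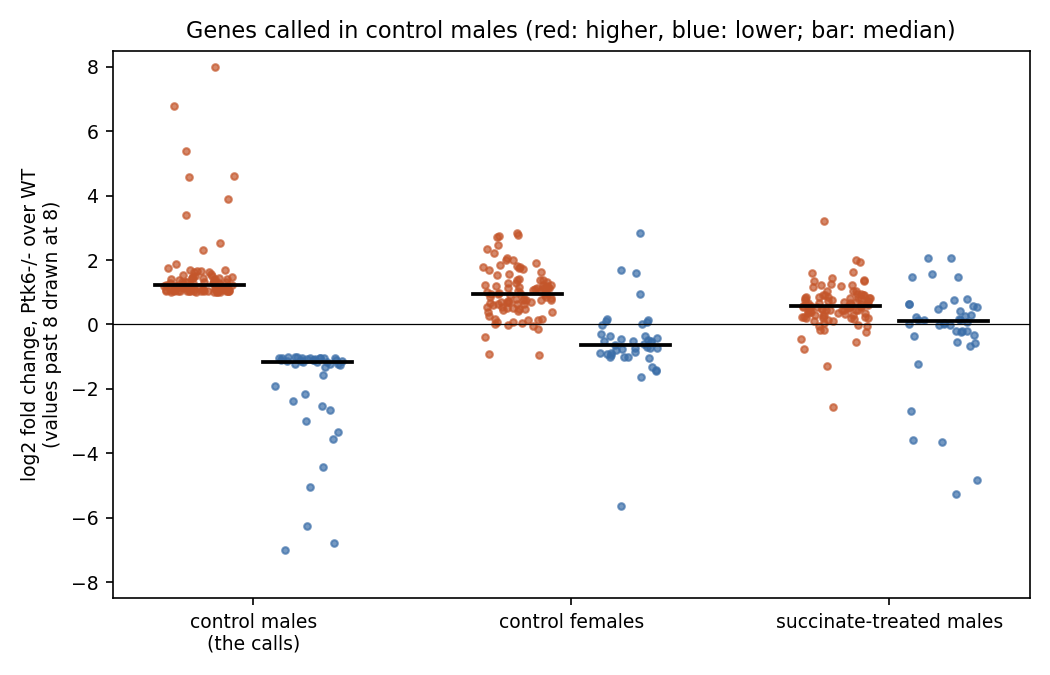
Points are the 99 genes called higher (red) and 43 called lower (blue) in control males, placed by their log2 fold change of Ptk6-/- over WT in control males, control females and succinate-treated males, with bars at the medians. The medians of the risen genes were 1.22, 0.96 and 0.58, and those of the fallen genes were -1.15, -0.63 and 0.10.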

How the data were processed

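RNA from distal jejunum was sequenced from 24 mice, of which the 6 control males are the subject. The authors selected poly(A) RNA (RIN over 7), made dUTP stranded libraries, sequenced paired ends of 150 bases, trimmed with Cutadapt, mapped with HISAT2 and estimated expression with StringTie and ballgown. The program that counted reads is not given in the sources used here. The count values, as deposited by the authors, are whole numbers per gene without normalization, and how they were derived from reads is not stated. The deposited FPKM values are fragments scaled to transcript length and library size. The submitters' processing notes name GRCm39. Columns of the authors' own comparisons were not used.

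Counts were tested with edgeR 4.0.16 (quasi-likelihood, TMM, R 4.3.3) for genes reaching 10 counts or more in 3 or more libraries of the fit. A call needed a p under 0.05 after Benjamini-Hochberg adjustment and a 2-fold change or more. The study's methods name DESeq2, which was run as an alternative (1.42.0), with limma 3.58.1 (voom with quality weights, and log2(FPKM + 1) where the mean FPKM was 0.5 or more) and others given in the closing section. FPKM values were not rescaled between libraries, and limma on FPKM did not call Rere (limma adjusted p = 0.113). A count of 0 by limma on FPKM is therefore a weak check. FPKM and counts gave each gene's length, scaled on 3253 genes with 1 GENCODE transcript. Where all libraries of a genotype held at most 3 counts, a fold was taken against that floor.

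Members of the comparison, the 51 gene lists and the tests were chosen with earlier results of these data known. Genes were named by rule: Ptk6, Frk and Srms, the 12 genes in each direction with the smallest p among called genes without overlap between genotypes and with an informative symbol, called members of each list (at most 6) and its 2 genes of smallest p, genes named by the study, the most abundant genes and the 18S gene; others are marked. The labels call the replicates biological. Exact permutation of 3 against 3 samples cannot give a p below 0.1, so single genes were not tested that way. Some genes that the rule names are not reported here.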

Additional observations from a re-analysis of the deposited data

Results flagged for a closer look

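For 3 named genes every Ptk6-/- library lay on 1 side of every WT library in control males and on the other side in another contrast. Neither the difference between the contrasts nor the opposite direction alone had an edgeR adjusted p under 0.05. The interactions had edgeR adjusted p of 0.904, 0.904 and 0.296 for Pdk4, Igkv4-57 and Ppih. Pdk4 was higher in Ptk6-/- control males (log2 fold change 1.3) and lower in Ptk6-/- control females, with 5.61, 6.19 and 8.93 CPM in WT and 3.20, 4.78 and 2.81 CPM in Ptk6-/- females (log2 fold change -0.94, edgeR adjusted p = 0.385). The variable segment Igkv4-57 was lower in Ptk6-/- control males (-2.99) and higher in Ptk6-/- control females (2.83, edgeR adjusted p = 0.369). It had 2.24 to 9.80 CPM in WT and 10.8 to 105 CPM in Ptk6-/- females. Ppih was lower in Ptk6-/- control males (-2.16) and higher in succinate-treated Ptk6-/- males (0.64, edgeR adjusted p = 0.9999). It had 2.17 to 3.40 CPM in treated WT and 4.05 to 4.87 CPM in treated Ptk6-/- males.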

How the results depend on the processing

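Of the 142 calls in control males, the count was 277 with DESeq2, 577 with voom, 51 with the length offset, 1 with all 24 libraries in 1 fit, 813 with no fold threshold, and 2 to 211 over fits without 1 library. It was 5 with the replicate block, and 5 with the replicate block and length offset. Deviations of same-numbered mice from their group means had correlations of -0.074, -0.0048 and -0.0036. These are over all tested genes with 3 mice per group, so they cannot show whether the numbers pair mice. The share of calls that were higher in Ptk6-/- mice was 69.7% in the result given. It was 61.1% with 10 counts in every library, 42.9% with limma on FPKM and 84.3% with the length offset. With DESeq2 it was 57.8%, and with overlapping genes summed 60.4%. In control females the count of 3 became 175 with DESeq2, 1972 with voom, 1 with all 24 libraries, 5 with the length offset, 0 with the replicate block (with or without the length offset), and 0 to 1808 without 1 library, the highest without Ptk6-/- replicate 3. In succinate-treated males 0 became 72 with DESeq2, 1799 with voom, 13 with limma on FPKM, 5 without a filter, 1 with all 24 libraries, and 0 to 2 without 1 library. For sex by genotype 0 became 20 with DESeq2, 7 with voom and 3 with limma on FPKM, and for genotype by succinate 62 with DESeq2, 2 with voom, 3 without a filter, and 0 to 5 without 1 library. The causes were not tested.

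Genes not called in control males changed sign at small values. Pcna had 0.18, Gsdmc4 0.18, Mki67 0.19 and Mcm2 0.26 with limma on FPKM, where the median of all genes was 0.251 (0.0174 in the result given). Mcm2 had 0.0043 with DESeq2, 0.031 without a filter and -0.23 to 0.082 without 1 library. Dclk1 had -0.054 with the length offset and -0.044 with the replicate block too. Gsdmc2 had 0.072, 0.098 and 0.32 with the length offset, with the block too, and with limma on FPKM, and -0.33 to 0.054 without 1 library. Gsdmc3 had 0.11, 0.099 and 0.30 in these and -0.22 to 0.11 without 1 library. Gsdmc had -0.26 to 0.85 without 1 library. Sucnr1 had -0.016 with all 24 libraries, -0.010 with voom, -0.00815 without the 18S rRNA gene, and -0.38 to 0.88 without 1 library. Of the other gene and setting pairs, 558 kept direction and call, 367 kept direction but not the call, and 4 gained one. Low counts limit Srms, Sucnr1 and the type 2 cytokines.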
